A study of Mus musculus with 7 samples.

Results

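The 10 genes described here were chosen by symbol: the 3 hypoxia-inducible factor (HIF) alpha subunits Hif1a, Epas1 and Hif3a, the prolyl hydroxylases Egln1 and Egln3, and the hypoxia targets Car9, Ndrg1, Bnip3, Adm and Ankrd37. Each symbol matched 1 of the 46603 Ensembl genes counted. RNA-seq was performed on 7 pieces of tumors grown in Balb/c nude mice (females, 16 weeks old) that had been injected with mouse embryonic fibroblasts (MEFs). The 3 KO pieces came from NM1 KO cells, in which Nuclear Myosin 1 was deleted with CRISPR/Cas9. The 4 KO+NM1 pieces came from NM1 KO cells after a lentivirus had put back NM1 with an HA and a V5 tag. The injected cells of both kinds thus carry an NM1 deletion. Rescue cells were selected with neomycin and tested as single clones. The sample descriptions write of 1 tumor of each kind, cut into pieces and collected at the end of a 30 day cycle, so the spread between pieces may hold no difference between mice, and p-values measure the spread between pieces only. Nude mice lack T cells but keep other immune cells, vessels, fat and muscle, and counts per gene do not separate injected from host cells.

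HIFs are transcription factors made of an oxygen-regulated alpha subunit and the stable partner ARNT. At normal oxygen the prolyl hydroxylases encoded by Egln1, Egln2 and Egln3 mark the alpha subunits for VHL, which directs them to the proteasome, and at low oxygen the subunits persist and bind DNA at a short core motif. The regulation of HIF alpha is thus largely at the level of protein, and RNA levels do not measure it. Hif1a is expressed in most cells, whereas Epas1, which encodes HIF-2 alpha, is known for high levels in endothelial cells and adipocytes.

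The 7 libraries held 24088309 to 28326568 counted reads. Values are given as CPM, reads of a gene in every 1e+06 reads of its library after edgeR's TMM scaling, and 3 counts, the most that a gene with 0 counts could hide, equal 0.0991 to 0.148 CPM (counting error only). Myo1c, the gene of NM1, reached 289 to 313 CPM in the KO pieces and 382 to 438 CPM in the KO+NM1 pieces, counted over all its isoforms. KO+NM1 piece 01 stood apart, with correlations of 0.855 to 0.861 with the other KO+NM1 pieces against 0.977 to 0.986 among those. White adipocyte markers summed to 118 to 310 CPM in the KO pieces, to 4770 CPM in KO+NM1 piece 01 and to 24822 to 34996 CPM in the other KO+NM1 pieces, and all 10 were lower in KO. The 10 endothelial markers, all lower in KO as well, summed to 256 to 295 CPM and 1351 to 2031 CPM. Skeletal muscle markers summed to 2494 to 21859 CPM in KO and 10.5 to 29.3 CPM in KO+NM1, where Ckm, Myh4 and Tnnc2 were at or under 3 counts in every piece. Macrophage markers other than Lyz2 summed to 2287 to 2606 CPM in KO and 429 to 589 CPM in KO+NM1, with piece 01 at 579 CPM. Of the 10 macrophage markers 7 were higher in KO, while Lyz2, Mertk and Cd163 did not pass the test. Cd163 went the other way, with means of 11.2 CPM in KO and 27 CPM in KO+NM1. Lyz2 alone reached 1898 CPM in KO+NM1 piece 01, against 886 to 1022 CPM in KO and 196 to 272 CPM in KO+NM1 pieces 02 to 04. Brown adipocyte markers summed to 9.77 to 35.9 CPM in KO and 414 to 948 CPM in KO+NM1 apart from piece 03, with 3637 CPM, and 4 of these 7 markers were lower in KO. Mitochondrial genes took 1.81% to 2.14% of the counts in KO and 5.11% to 18.5% in KO+NM1, most in piece 03. The 8 proliferation markers, all higher in KO, summed to 1955 to 2531 CPM and 72.5 to 204 CPM. Fibroblast markers, the label's own cell type, were present in every piece and summed to 9875 to 16017 CPM and 4076 to 15445 CPM. Of these 10 markers 1 was higher and 4 were lower in KO, where 17.1% of all genes were higher and 20.3% lower. Keratinocyte markers summed to 1090 CPM in KO piece 02, above every other piece. In KO pieces 01 and 03 they summed to 27.1 and 7.46 CPM, below every KO+NM1 piece. Of the 5 keratinocyte markers tested 0 passed the test. Erythroid markers summed to 19.5 to 30.1 CPM in KO and 219 to 830 CPM in KO+NM1, and all 5 tested were lower in KO. The part of these cell types in the results below was not tested. In bulk tissue, fewer cells of a type and less RNA per cell cannot be told apart.

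Epas1, Bnip3, Adm and Ndrg1 were lower in the KO tumor, from 3.34-fold for Ndrg1 to 15-fold for Epas1, while Hif1a was 1.96-fold higher. Egln1, Egln3, Car9 and Ankrd37 did not pass the test, and Hif3a was too low to be tested. Changed genes are those with both an adjusted p under 0.05, from edgeR's quasi-likelihood test, and at least a 2-fold difference. Of all 16887 genes tested 37.3% were changed in this way, 17.1% higher and 20.3% lower in KO. Of the 9 members tested 0 were higher and 4, or 44.4%, were lower, and their median log2 fold change, KO minus KO+NM1, was -0.32 against -0.0017 over all genes. At an unadjusted p under 0.05, 1 member was higher, Hif1a, and by the adjusted p alone Hif1a was higher and the same 4 were lower, where 50.2% of all genes were called, 25.7% higher and 24.5% lower. The Wald test of DESeq2 also called 0 higher and 4 lower, and limma's voom with quality weights called 3 higher, Hif1a, Car9 and Ankrd37, and 4 lower. Groups did not overlap for 6 of the 9, against 57% of all genes tested. In KO, Hif1a and Egln3 lay above KO+NM1 in every piece (30.5% of all genes) and Epas1, Ndrg1, Bnip3 and Adm lay below (26.4%).

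**Figure D1:**
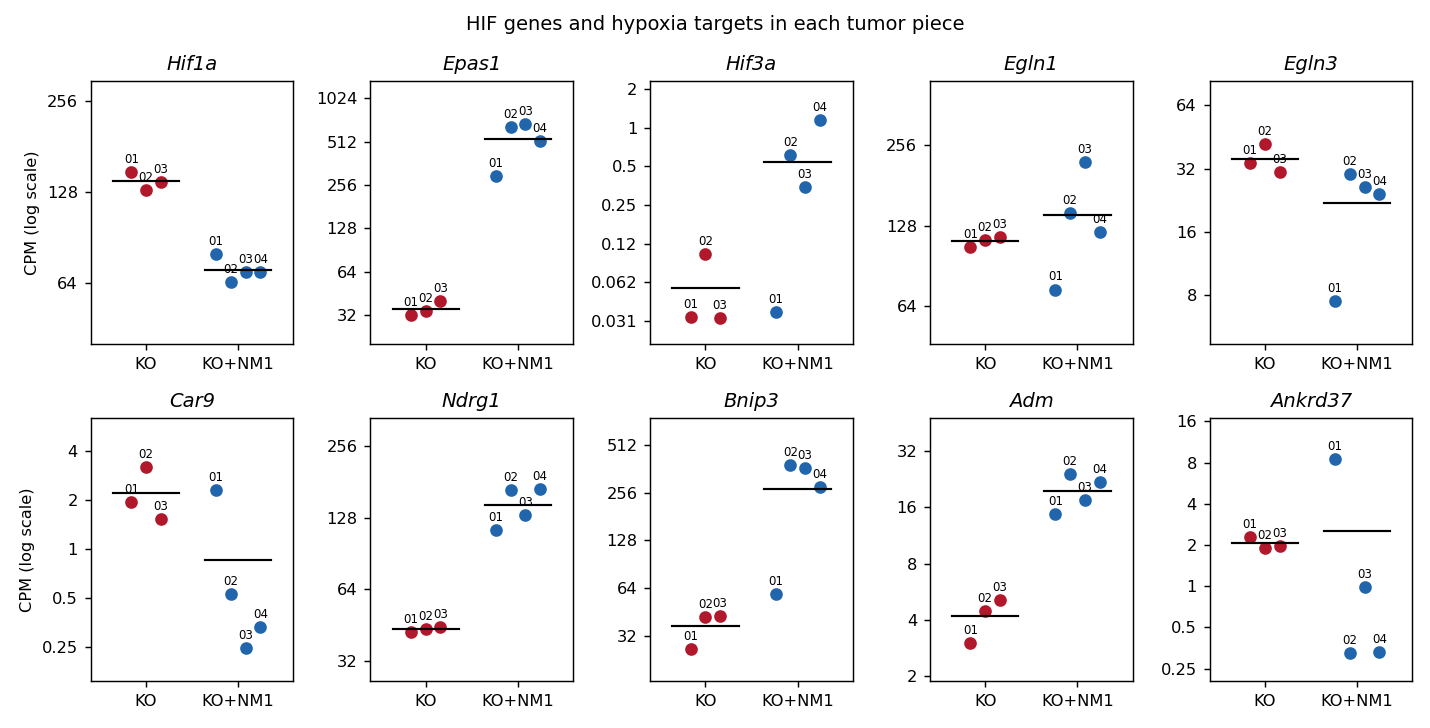
CPM of the 10 genes (log scale) in the 3 KO pieces, red, and the 4 KO+NM1 pieces, blue, with piece numbers and a line at the mean of each group. Epas1, Ndrg1, Bnip3 and Adm are lower in every KO piece than in any KO+NM1 piece, and Hif1a is higher. KO+NM1 piece 01 lies outside the range of the other KO+NM1 pieces for all 10 genes.

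Hif1a was higher and Epas1 lower in the KO tumor. Hif1a (ENSMUSG00000021109, chromosome 12 from 73901375 to 73947530, plus strand, GRCm38) reached 149, 130 and 138 CPM in KO pieces 01 to 03 and 80, 64.4, 69.5 and 69.4 CPM in KO+NM1 pieces 01 to 04. The lowest KO value exceeded the highest KO+NM1 value, and the spread within each group was small. Its log2 fold change reached 0.97 (standard error 0.13, 95% interval 0.67 to 1.27, adjusted p = 0.00127 from edgeR), so Hif1a passed the adjusted p but lay just under the 2-fold threshold, which it crossed with library size as the only scaling, at 1.15, and with voom, at 1.03.

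Epas1 (ENSMUSG00000024140, chromosome 17 from 86753700 to 86833410, plus strand) reached 32.2, 34.4 and 39.9 CPM in the KO pieces and 294, 643, 673 and 517 CPM in KO+NM1 pieces 01 to 04. The groups stood far apart, and KO+NM1 piece 01 was the lowest of its group. Its log2 fold change of -3.90 (standard error 0.29, 95% interval -4.59 to -3.22, adjusted p = 0.000421 from edgeR) was the largest among the members tested. The endothelial and white adipocyte markers were also lower in every KO piece, and within the KO+NM1 tumor both sums were lowest in piece 01, as Epas1 was. Single endothelial markers differed, since Pecam1 was highest in piece 01, at 479 CPM, and Egfl7 was not lowest there. The other endothelial markers were lowest in piece 01. The part of these cells in the Epas1 values was not tested.

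The ratio of both subunits within a piece does not depend on the scaling. The log2 ratio of Epas1 to Hif1a, each per kilobase of exon, was -2.13, -1.83 and -1.72 in the KO pieces and 1.96, 3.40, 3.35 and 2.97 in the KO+NM1 pieces. Hif1a was thus the more abundant transcript in each KO piece and Epas1 in each KO+NM1 piece. The means were -1.89 ± 0.213 (SD, n = 3) and 2.92 ± 0.669 (SD, n = 4), a difference of -4.81 (two-sided exact permutation test, p = 0.0286, which is the minimum for groups of 3 and 4, or 0.0857 adjusted over the 3 ratios computed here).

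Hif3a (ENSMUSG00000004328, chromosome 7 from 17031507 to 17062427, minus strand) encodes an alpha subunit whose isoforms include inhibitors of the others. It had 1, 3 and 1 counts in the KO pieces and 1, 15, 7 and 28 counts in KO+NM1 pieces 01 to 04. In KO+NM1 only piece 01 was as low as KO, and the others lay above all KO pieces. With 51 counts in KO+NM1 and 5 in KO, the ratio after scaling was 9.41 (95% interval 3.78 to 30.2 by the exact method, counting error only), and no test was made since Hif3a did not pass edgeR's filter on low counts.

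Of the oxygen-sensing enzymes, Egln1, the main hydroxylase of HIF-1 alpha, showed no difference that passed the test. Egln1 (ENSMUSG00000031987, chromosome 8 from 124908587 to 124949324, minus strand) reached 107, 113 and 116 CPM in the KO pieces and 73.9, 143, 221 and 121 CPM in KO+NM1 pieces 01 to 04. The KO pieces were nearly equal and lay inside the range of the KO+NM1 pieces, which spanned 3-fold. A log2 fold change of -0.32 resulted (95% interval -1.12 to 0.47, adjusted p = 0.461 from edgeR). It depended on single KO+NM1 pieces, at -0.66 without piece 01 and -0.03 without piece 03, with adjusted p of 0.032 and 0.94 in these edgeR fits. Piece 03, the highest in Egln1, was also the highest in brown adipocyte markers and mitochondrial counts, whose part in this value was not tested.

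Egln3, which encodes a hydroxylase and is itself a HIF target, lies on the minus strand of chromosome 12 from 54178981 to 54203860 (ENSMUSG00000035105). It reached 34, 41.7 and 30.8 CPM in the KO pieces and 7.48, 30.2, 26.1 and 24.3 CPM in KO+NM1 pieces 01 to 04. The groups were apart, by a small margin except for KO+NM1 piece 01. The log2 fold change of 0.69 (95% interval -0.34 to 1.72, adjusted p = 0.224 from edgeR) did not pass the test, and without KO+NM1 piece 01 it was 0.27 (adjusted p = 0.136 from edgeR). The log2 ratio of Egln3 to Egln1 per kilobase averaged -1.23 ± 0.236 (SD, n = 3) in KO and -2.30 ± 0.536 (SD, n = 4) in KO+NM1, and Egln3 was the less abundant of the pair in all 7 pieces. The difference of 1.07 on the log2 scale had a p of 0.0571 (two-sided exact permutation test, 0.0857 adjusted over the 3 ratios).

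Among the 5 target members, Bnip3, a mitochondrial receptor for mitophagy, fell most in the KO tumor. Bnip3 (ENSMUSG00000078566, chromosome 7 from 138890836 to 138909519, minus strand) reached 26.4, 41.8 and 42.3 CPM in the KO pieces and 58.8, 382, 368 and 278 CPM in KO+NM1 pieces 01 to 04. In KO+NM1, piece 01 lay much closer to the KO pieces than to the rest of its group. For Bnip3 the log2 fold change was -2.88 (standard error 0.57, 95% interval -4.24 to -1.53, adjusted p = 0.00887 from edgeR), and without KO+NM1 piece 01 it was -3.35. Its relative Bnip3l, also a mitophagy receptor and a HIF target, changed by -0.83 on the log2 scale (adjusted p = 0.0035 from edgeR), under the 2-fold threshold. Of the exon bases of Bnip3, 22.2% overlap Gm45507 on the opposite strand, which was not analysed here. The log2 ratio of Bnip3 to Bnip3l per kilobase was -0.41, 0.03 and 0.17 in the KO pieces and 0.09, 2.39, 2.38 and 2.00 in the KO+NM1 pieces. Here KO+NM1 piece 01 lay within the range of the KO pieces, and the difference of -1.78 had a p of 0.0857 (two-sided exact permutation test, before and after adjustment).

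Adm encodes adrenomedullin, a secreted peptide that widens vessels and acts on their endothelium. Adm (ENSMUSG00000030790, chromosome 7 from 110627661 to 110629820, plus strand) reached 3, 4.45 and 5.12 CPM in the KO pieces and 14.7, 24.2, 17.6 and 21.9 CPM in KO+NM1 pieces 01 to 04. All KO pieces were below all KO+NM1 pieces, and piece 01 was the lowest of the latter. This gave a log2 fold change of -2.23 (standard error 0.27, 95% interval -2.87 to -1.59, adjusted p = 0.00129 from edgeR). Adrenomedullin acts through Calcrl paired with Ramp2 or Ramp3. Of these genes and the related Ramp1, 4 in all, 3 were lower in KO, as were 20.3% of all genes. They were Ramp2 with -2.82, Ramp1 with -1.98 and Calcrl with -1.21 (adjusted p = 0.000338, 0.000767 and 0.0107 from edgeR). Ramp3 had -1.98 (adjusted p = 0.123 from edgeR). Ramp2 shares 33.4% of its exon bases with Vps25 on the same strand. The endothelial markers were lower in KO as well.

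Ndrg1, a gene of differentiation and stress that HIF and other signals induce, fell the least of the 4. Ndrg1 (ENSMUSG00000005125, chromosome 15 from 66929318 to 66969640, minus strand) reached 42.2, 43.7 and 44.6 CPM in the KO pieces and 113, 168, 132 and 169 CPM in KO+NM1 pieces 01 to 04. The groups did not overlap, and the KO pieces were almost equal. Its log2 fold change was -1.74 (standard error 0.17, 95% interval -2.15 to -1.33, adjusted p = 0.000673 from edgeR). Of its 3 relatives in the Ndrg family 0 passed both thresholds in edgeR's test, and at an unadjusted p under 0.05 only Ndrg3 was lower, with a log2 fold change of -0.64 (adjusted p = 0.0453 from edgeR).

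Car9 encodes carbonic anhydrase IX, a cell surface enzyme that regulates pH and a common marker of hypoxic tumor regions. Car9 (ENSMUSG00000028463, chromosome 4 from 43506966 to 43513729, plus strand) was low throughout, at 1.93, 3.2 and 1.52 CPM in the KO pieces and 2.3, 0.529, 0.247 and 0.329 CPM in KO+NM1 pieces 01 to 04, that is 58, 92 and 46 counts and 63, 13, 5 and 8 counts. Only piece 01 of KO+NM1 lay inside the range of the KO pieces, and the other KO+NM1 pieces lay below all of them. For Car9 this was a log2 fold change of 1.36 (standard error 0.80, 95% interval -0.53 to 3.25, adjusted p = 0.192 from edgeR). It was 2.44 without KO+NM1 piece 01 and 0.89 without KO piece 02, with adjusted p of 0.00206 and 0.476 in these edgeR fits. KO piece 02, the highest in Car9, was also the highest in keratinocyte markers, whose part in this value was not tested. Gm12454 overlaps 9.29% of the exon bases of Car9 on the opposite strand. Car12, another membrane carbonic anhydrase, was higher in KO with 1.61 (standard error 0.38, adjusted p = 0.0115 from edgeR).

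Ankrd37 encodes a small ankyrin repeat protein that HIF induces in many cells. Ankrd37 (ENSMUSG00000050914, chromosome 8 from 45996902 to 46005707, minus strand) reached 2.3, 1.91 and 1.98 CPM in the KO pieces and 8.5, 0.325, 0.988 and 0.329 CPM in KO+NM1 pieces 01 to 04. The highest of all 7 pieces was KO+NM1 piece 01, with 233 counts, and the other KO+NM1 pieces, with 8, 20 and 8 counts, were the lowest. The log2 fold change of -0.30 (standard error 1.15, 95% interval -3.01 to 2.41, adjusted p = 0.847 from edgeR) turned positive, to 1.80, when KO+NM1 piece 01 was left out (adjusted p = 0.0115 in that edgeR fit). Of the exon bases of Ankrd37, 22.7% overlap Lrp2bp and 3.7% overlap Ufsp2 on the opposite strand, and the strand setting of the counting is not given in the sources used here.

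**Figure D2:**
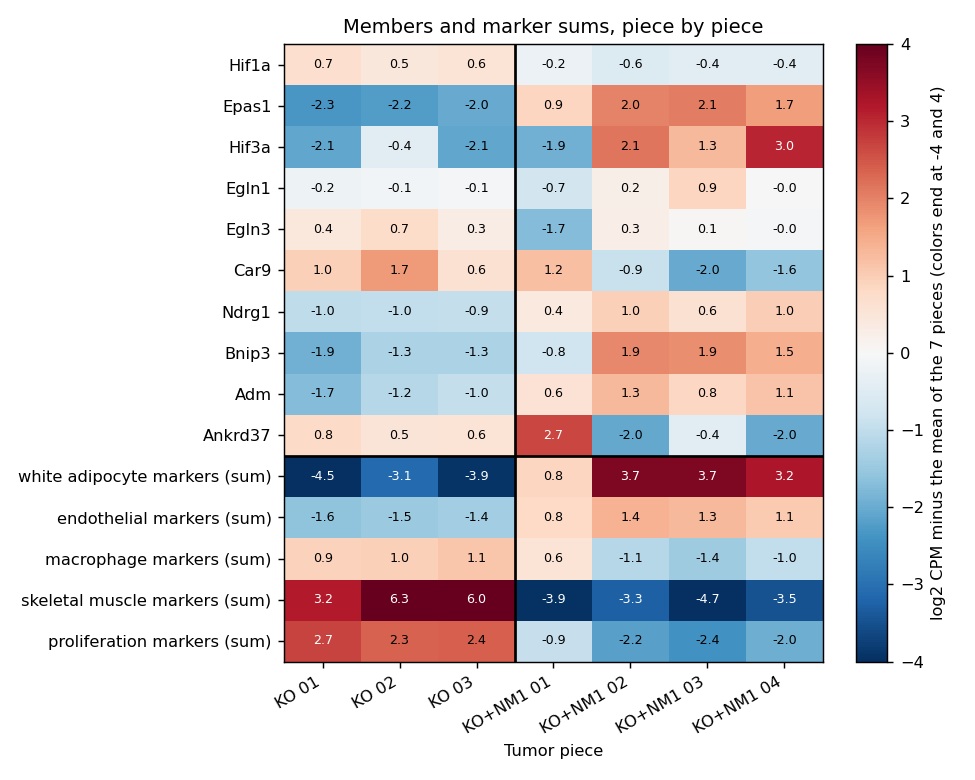
log2 CPM of each gene (rows), and of the summed markers of 5 cell types or states, minus the mean over the 7 pieces (columns), with colors ending at -4 and 4; in KO+NM1 piece 01 Lyz2 makes up most of the macrophage sum. Epas1, Bnip3, Ndrg1 and Adm are below their mean in all KO pieces, while KO+NM1 piece 01 has the highest Ankrd37, at 2.66, and the lowest Egln3, at -1.75.

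KO+NM1 piece 01 thus differed from the other pieces of its tumor in several members. Compared with KO+NM1 pieces 02 to 04 it held lower Epas1, Hif3a, Egln1, Egln3, Ndrg1, Bnip3 and Adm and higher Hif1a, Car9 and Ankrd37, outside their range for all 10 genes. The share of all genes outside that range in piece 01 was not computed, so this count cannot be set against other genes. By its correlations over all tested genes, piece 01 stood apart as well. Among the 9 tested members, Ankrd37 spanned most within the KO+NM1 pieces, 26.1-fold from lowest to highest, followed by Car9 with 9.3-fold and Bnip3 with 6.5-fold. Within the KO pieces the tested members spanned at most 2.11-fold, for Car9.

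**Figure D3:**
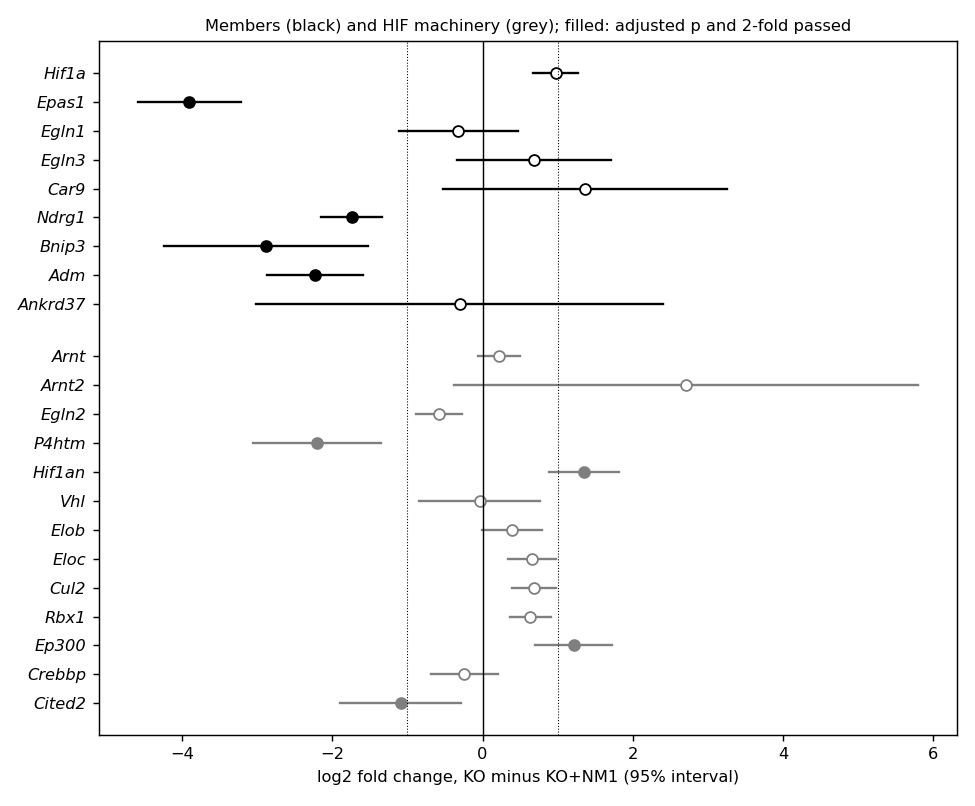
log2 fold changes (KO minus KO+NM1) with 95% intervals for the 9 members tested, black, and the 13 genes of the HIF machinery, grey, with filled points for those past the adjusted p and 2-fold thresholds. Epas1, Bnip3, Adm and Ndrg1 lie left of -1 with their whole intervals, Hif1a sits at 0.97, and Ankrd37 and Arnt2 have wide intervals that include 0.

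Per kilobase of exon, the order of the members differed between the tumors. In KO the highest was Egln1, with 31.1 ± 1.27 CPM per kb (SD, n = 3), followed by Hif1a with 23.6 ± 1.64, Bnip3 with 16.3 ± 3.98 and Egln3 with 13.3 ± 2.11, then by Ndrg1 with 6.59 ± 0.182, Epas1 with 6.35 ± 0.708, Adm with 2.59 ± 0.669, Ankrd37 with 1.34 ± 0.135, Car9 with 0.962 ± 0.38 and Hif3a with 0.00848 ± 0.00612. Among neighbours in this order, the ranges over the pieces overlapped for Bnip3 and Egln3, for Ndrg1 and Epas1 and for Ankrd37 and Car9. In KO+NM1 the highest were Bnip3, with 120 ± 65.9 CPM per kb (SD, n = 4), and Epas1 with 95.1 ± 30.8, followed by Egln1 with 38.9 ± 17.1, Ndrg1 with 22 ± 4.17, Adm with 12.1 ± 2.63, Hif1a with 12 ± 1.11, Egln3 with 8.27 ± 3.76, Ankrd37 with 1.65 ± 2.59, Car9 with 0.369 ± 0.422 and Hif3a with 0.0799 ± 0.0704. All neighbours in the KO+NM1 order had overlapping ranges except Ndrg1 and Adm. Epas1 per kb lay above 55.8% to 60.4% of the tested genes in the KO pieces and above 94.5% to 97.3% in the KO+NM1 pieces.

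Members were also set beside the 2 genes most like them in pattern, measured by Pearson's r of log2 CPM over the 7 pieces among 11886 protein-coding genes with a mean of at least 5 CPM. With 7 points in 2 groups that share their libraries, such an r is a description only. Epas1 was most like Adcy5 and Hcar1, the lactate receptor of adipocytes, both with r = 0.999, and Hif1a most like Nom1 and Aak1, both with r = 0.999. Bnip3 was most like Pigyl and Gpt2, both with r = 0.998. Adm had its highest r, 0.998, with Ackr1, a chemokine receptor of venular endothelium and red cells, and with Chmp2b. Ndrg1 had r = 0.997 with Eid2b and with Cygb. For Egln1 the closest were Alg9 with r = 0.996 and Ndufc1 with r = 0.995, for Egln3 Tspan9 with r = 0.994 and Bod1 with r = 0.992, and for Hif3a Tead3 with r = 0.99 and Fzd7 with r = 0.986. Car9 was closest to Tra2b with r = 0.99 and Gltp with r = 0.986. For Ankrd37 they were Taf10 with r = 0.997 and Cd22, a gene of B cells, with r = 0.993.

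The rest of the HIF machinery, 13 genes of the dimer partners, hydroxylases, VHL complex and coactivators, held 2 higher and 2 lower genes in KO, together 30.8% against 37.3% of all genes. Hif1an, the asparagine hydroxylase that blocks coactivator binding, was higher by 1.35 on the log2 scale (standard error 0.20, adjusted p = 0.00184 from edgeR), and so was the coactivator Ep300 with 1.21 (standard error 0.22, adjusted p = 0.00364 from edgeR). P4htm, a transmembrane prolyl hydroxylase, was lower with -2.21 (standard error 0.36, adjusted p = 0.00351 from edgeR), and so was Cited2, a competitor of HIF for the coactivators, with -1.09 (standard error 0.34, adjusted p = 0.0371 from edgeR), although its pieces overlapped. By the adjusted p alone, by which 25.7% of all genes were higher and 24.5% lower, 3 genes of the complex that carries VHL were also higher, with Cul2 at 0.68, Eloc at 0.66 and Rbx1 at 0.64, and the hydroxylase Egln2 was lower at -0.58. Arnt, the partner of all alpha subunits, had 0.22 (adjusted p = 0.158), Vhl -0.04 (adjusted p = 0.933), Elob 0.39 (adjusted p = 0.0925), Crebbp -0.25 (adjusted p = 0.318) and Arnt2 2.71 (adjusted p = 0.133), all from edgeR. Arnt2 had 28.3, 21.4 and 21 CPM in KO, above its 12.8, 0.61, 0.0988 and 0.781 CPM in KO+NM1 pieces 01 to 04. The median over the list was 0.39.

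Other hypoxia targets, 24 genes outside glycolysis, held changes in both directions. Of the 23 tested, 4 were higher and 10 lower in KO, or 17.4% and 43.5% against 17.1% and 20.3% of all genes, with a median log2 fold change of -0.69. The largest falls were those of Stc2, which encodes a secreted glycoprotein, with -6.38 (standard error 0.50), of Angptl4, an inhibitor of lipoprotein lipase made by adipocytes, with -4.47 (standard error 0.55), and of Vegfa, the main growth factor of blood vessels, with -3.02 (standard error 0.35), at adjusted p of 0.000643, 0.00196 and 0.0013 from edgeR. Among the genes that rose was the collagen-modifying enzyme Plod2, with 2.65 (standard error 0.24, adjusted p = 0.000501 from edgeR). Car12 rose by 1.61, as given beside Car9, and P4ha1, a subunit of the collagen prolyl hydroxylase, by 1.25 (standard error 0.18, adjusted p = 0.00171 from edgeR). Epo had 0 counts in all 7 pieces.

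Of the 15 glycolytic targets 1 was higher and 2 were lower, with a median of -0.13, so 20% were changed against 37.3% of all genes. Slc16a3, the lactate exporter MCT4, was higher with 3.73 (standard error 0.41, adjusted p = 0.0009 from edgeR). Pfkfb3, which makes an activator of glycolysis, was lower with -2.20 (standard error 0.37, adjusted p = 0.00385 from edgeR), and so was Pdk1, which holds back pyruvate from mitochondria, with -1.69 (standard error 0.28, adjusted p = 0.00337 from edgeR). The classic targets Slc2a1, Pgk1 and Ldha had 0.68, 0.69 and -0.29 (adjusted p = 0.182, 0.142 and 0.569 from edgeR). Reads of Gapdh, Pgk1, Ldha, Aldoa and Eno1 could be shared with processed copies elsewhere in the genome. Without KO+NM1 piece 01, an alternative chosen after seeing the data, the counts over these lists were 3 higher and 2 lower for the machinery, 4 and 11 for the other targets and 1 and 3 for the glycolytic targets.

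**Figure D4:**
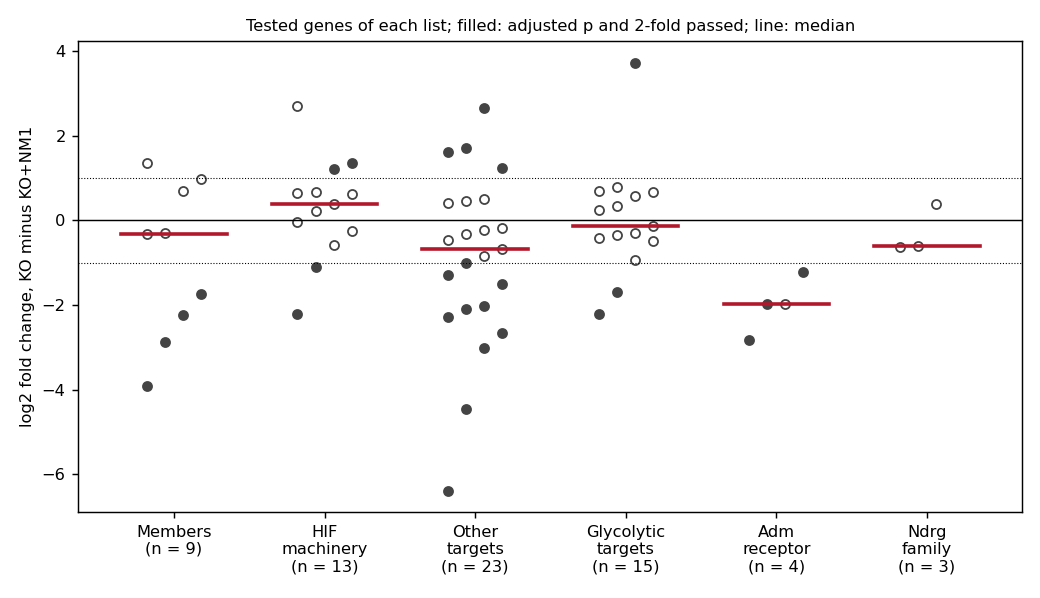
log2 fold change (KO minus KO+NM1) of every tested gene in the members and in the 5 other lists, with filled points past the adjusted p and 2-fold thresholds and a red line at the median of each list. The medians lie between -1.98 for Calcrl and the Ramp genes, labelled Adm receptor, and 0.39 for the HIF machinery. The targets reach from -6.38 for Stc2 to 3.73 for Slc16a3.

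The sequence before the start site of the members was searched for the HIF core motif, ACGTG or GCGTG, on both strands, where CACGTG counts once on each strand. RefSeq promoters (GRCm38.p6) were found for 8 of the 10 members, all but Epas1 and Ndrg1, and the 250 bases before the start were used. For Hif1a and Ankrd37 the RefSeq start lies 6492 and 5857 bases from the start of the gene in GENCODE, so their windows lie within the span of the gene. The bases checked after the Hif1a start matched no GENCODE transcript of Hif1a, while those of the other promoters matched their genes. All 8 held at least 1 core, 20 in total, and 6 held ACGTG. Of 19212 promoters of the same length 43.2% held a core and 17.6% held ACGTG, and among those of the tested genes the shares were 54.3% and 20.9%. The share with a core was 53.6% for the genes higher in KO and 49.4% for those lower in KO. In the other lists it was 45.5% for the HIF machinery, 53.3% for the other targets and 80% for the glycolytic targets. The members' promoters had a median GC content of 64.2% against 54.8% over all promoters and 59.6% over those of the tested genes, and the motif contains CG.

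The promoters of Bnip3 and Adm are shown because both genes were lower in KO, and those of Ankrd37 and Egln3 because these genes set KO+NM1 piece 01 apart. They lie at chr7:138909507-138909756 (minus strand), chr7:110627407-110627656 (plus strand), chr8:45999851-46000100 (minus strand) and chr12:54203875-54204124 (minus strand), in the order below. Each is written 5′ to 3′ along its gene, ends at the base before the RefSeq start site, and has the cores on either strand in capitals.
Bnip3: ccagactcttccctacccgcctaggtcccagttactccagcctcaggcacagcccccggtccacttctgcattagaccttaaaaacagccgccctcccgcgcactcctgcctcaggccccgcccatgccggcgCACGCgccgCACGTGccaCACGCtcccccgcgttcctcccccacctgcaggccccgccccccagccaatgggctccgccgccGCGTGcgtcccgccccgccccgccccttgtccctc
Adm: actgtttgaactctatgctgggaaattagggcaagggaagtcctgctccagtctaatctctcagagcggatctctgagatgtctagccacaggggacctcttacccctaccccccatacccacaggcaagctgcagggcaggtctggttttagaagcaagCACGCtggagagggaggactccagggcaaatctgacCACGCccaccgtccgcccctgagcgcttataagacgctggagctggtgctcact
Ankrd37: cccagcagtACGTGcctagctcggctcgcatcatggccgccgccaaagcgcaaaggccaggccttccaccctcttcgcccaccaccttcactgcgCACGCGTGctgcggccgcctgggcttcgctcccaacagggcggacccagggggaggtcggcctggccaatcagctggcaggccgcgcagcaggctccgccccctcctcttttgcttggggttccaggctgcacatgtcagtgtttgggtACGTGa
Egln3: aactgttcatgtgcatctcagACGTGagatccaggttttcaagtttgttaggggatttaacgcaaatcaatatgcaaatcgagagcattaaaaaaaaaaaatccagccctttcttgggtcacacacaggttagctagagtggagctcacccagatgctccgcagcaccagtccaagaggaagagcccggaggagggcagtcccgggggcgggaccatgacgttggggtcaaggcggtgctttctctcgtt
Bnip3 held 5 cores, Ankrd37 held 4, Adm held 2 and Egln3 held 1. A match marks letters in a window and not a bound site.

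**Figure D5:**
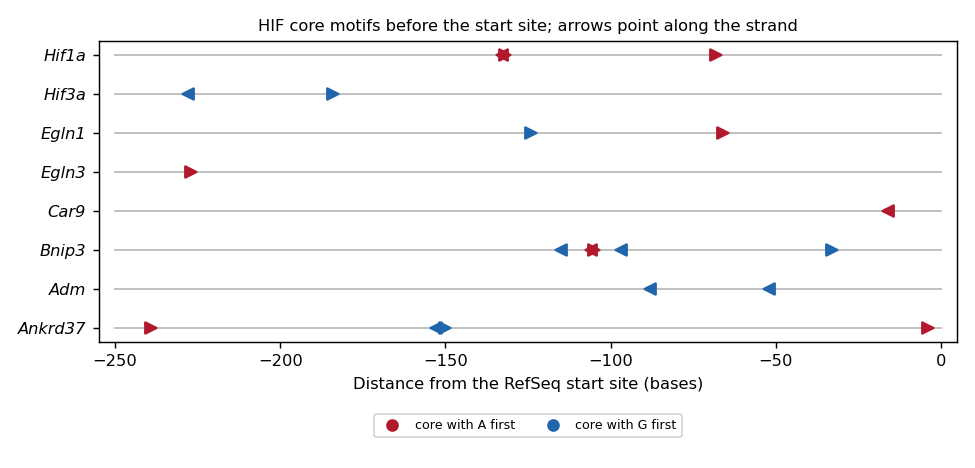
Position of each HIF core (arrows, pointing along its strand) in the 250 bases before the RefSeq start site of the 8 members with a promoter, red for the core with A first and blue for the core with G first. Bnip3 holds 5 cores, 4 of them between -117 and -99 bases, and the core of Car9 lies at -18.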

How the data were processed

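Members and gene lists were chosen with earlier results of these data known. Per the labels and the methods, the authors used Trimmomatic 0.36 for trimming, HISAT2 2.0.4 for alignment to GRCm38, SAMtools 0.1.19 for sorting and HTSeq-count for counting. What they deposited are raw counts of 46603 Ensembl genes, not normalized. Symbols and exon lengths came from GENCODE M21 (46005 genes matched). The annotation and strand setting of the counting are not given in the sources used here.

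Counts were analysed in R 4.3.3 with edgeR 4.0.16, comparing 3 KO with 4 KO+NM1 pieces without a block: filterByExpr (minimum count 10), TMM, quasi-likelihood test and Benjamini-Hochberg adjustment over 16887 genes. Standard errors and intervals used the moderated dispersion of the fit, with a biological coefficient of variation of 46.7%. CPM per kb is CPM over the union of exons. Ratios used counts plus 0.5 and exact permutation tests over 35 splits. No library was a repeat of another (chi-square per degree of freedom 35.2 to 1050 over 21 pairs). Named were all members and machinery genes, the 3 largest called rises and falls of the other lists, and the 2 genes most like each member by r. One called gene of the other targets is not reported here by name, and the next in order was taken. The text also names Bnip3l, Ndrg3, Ramp3, Epo, Slc2a1, Pgk1 and Ldha, chosen after their values were seen. Cell type marker lists are those whose sums are given above. Alternatives were other scalings and filters, DESeq2 1.42.0, limma 3.58.1, the adjusted p alone, a replicate block and leaving out each piece. The thresholds for a changed gene follow the methods of the study. The steps were tested on simulated data.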

Additional observations from a re-analysis of the deposited data

Results flagged for a closer look

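Dixon's ratio, the distance from the most extreme piece to the next one as a share of the full range, was computed over the 4 KO+NM1 pieces on the log2 scale for the 10 members and the 3 ratios, and 2 of these 13 values passed its 95% critical value. Egln3 had 0.844 and Bnip3 had 0.831, and in both KO+NM1 piece 01 was the outermost, far below the others. By chance about 1 in 20 such groups has a piece this far out, and the values share their libraries. Piece 01 was the outermost for all 13 values. The share of all genes past the critical value was not computed, so the 2 flags cannot be set against other genes. By its correlations over all tested genes, piece 01 stood apart as well. In KO+NM1 piece 01 the white adipocyte markers summed to 4770 CPM against 24822 to 34996 CPM in the other KO+NM1 pieces, and their part in both values was not tested.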

How the results depend on the processing

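Epas1, Ndrg1, Bnip3 and Adm stayed lower and past both thresholds in all 16 other fits, with log2 fold changes from -4.23 to -3.68, -1.97 to -1.55, -3.35 to -2.51 and -2.51 to -2.04, so the count of lower members was 4 throughout. The count of higher members moved from 0 to 1 with library size alone, to 3 with limma's voom with quality weights and to 1 by the adjusted p alone. Leaving out 1 piece gave 0 to 2 higher members, with the 2, Car9 and Ankrd37, without KO+NM1 piece 01. Hif1a stayed higher with an adjusted p of at most 0.0191. Ankrd37 turned to 0.54 with the replicate number as a block, to 2.17 with voom and to 1.80 without KO+NM1 piece 01, with a range of -0.68 to 1.80 over the fits without 1 piece, and the cause was not tested. DESeq2 gave it no adjusted p. With at least 10 counts in every piece Car9 and Ankrd37 were not tested. Over all genes, the adjusted p alone gave 4345 higher and 4132 lower genes. Leaving out 1 piece gave 2174 to 3603 higher and 2811 to 4172 lower genes, and library size alone gave 3401 and 2977 and the upper-quartile scaling 2461 and 3826. The median of all genes moved from -0.0017 to 0.17 with library size alone, to -0.10 with DESeq2's size factors and to -0.16 with upper-quartile scaling. Same-numbered pieces had correlations of deviations of 0.0802, 0.102 and -0.0165, so the numbers do not pair the pieces. With the replicate block 2437 genes were higher, 2493 were lower, and 0 members were higher and 4 lower. The ratios kept their direction with counts plus 2 and without each piece. Counts of at most 92 for Car9 and 28 for Hif3a limit their precision.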
